A study of Mus musculus with 4 samples.

Results

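The DNA repair genes described here are 70 mouse genes whose symbols carry the names of repair, checkpoint and poly-ADP-ribose polymerase families, such as Rad, Xrcc, Ercc, Fanc, Msh and Parp. They were taken from the authors' deposited sheet of changed probes by symbol alone, as rows with a single gene symbol, and make up 70 of the 8519 genes that the sheet names in this way. The 70 genes are covered by 77 probes. Expression was measured on 4 single-colour microarrays of RNA from C17.2, a line of mouse cerebellar progenitors immortalised with v-myc and grown here with serum. The 2 berberine samples received 7.38 mM AAPH, a compound that breaks down into peroxyl radicals, together with 1.69 µM berberine, a plant alkaloid, for 12 h. The 2 control samples received 7.38 mM AAPH alone for 12 h. Every culture was therefore damaged, and samples without AAPH or with berberine alone are not analysed here.

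Cells repair different kinds of DNA damage by separate routes. Base excision repair removes oxidised bases and seals single-strand breaks, and is the main route for damage by radicals. Nucleotide excision repair cuts out bulky lesions, mismatch repair corrects copying errors, and homologous recombination and end joining rejoin double-strand breaks. The Fanconi pathway undoes crosslinks between strands, translesion polymerases copy past damage, and the kinases ATM and ATR signal breaks and stalled forks to the cell cycle. Neural progenitors divide and use recombination as well as end joining.

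With berberine, 39 of the 70 genes had a lower probe signal and 31 a higher one, and nearly every pathway was split between the directions. The deepest falls were in the end-joining gene Xrcc6, in the base excision genes Polb and Parp1 and in the checkpoint gene Rad1, all at least 32.5-fold lower. The rises were smaller and reached 6.76-fold in the Fanconi gene Fancf. Translesion synthesis was the pathway in which every gene of the 70 fell, although it holds only 3 of them. Of 10 further genes of that pathway named in the sheet, 6 were higher and 4 lower. In homologous recombination 8 of 13 genes rose after normalization between arrays, where 55.6% of all named genes were called higher. Among the 8 were Brca1 and all subunits of the MRE11-RAD50-NBS1 complex. Without that normalization, 3 of the 13 were called higher and 5 lower, and Rad50 and Nbn did not pass (adjusted p = 0.949 and 0.0662, limma).

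These counts need to be read against the sheet from which the names come. Berberine was compared with control by limma over all 26423 probes, on log2 intensities that were quantile-normalized between arrays, and a gene was called when its Benjamini-Hochberg adjusted p was under 0.05. The sheet lists only probes that the authors had already called changed on these same arrays, so that all 70 genes passed and 99.7% of all named genes did is fixed by the choice of rows. Only the direction was free. Among all named genes 44.1% were called lower and 55.6% higher, while among all probes 22.5% were called lower and 40.2% higher. The share lower among the repair genes was 55.7%, and their median log2 fold change was −1.24, against 1.22 over all named genes. This median lies among the smaller falls. Rises and falls formed separate groups, since no repair gene had a change between −1.0 and 0.95. The log2 ratio nearest to 0 of any repair gene in the authors' deposited table was 1.01, for Rad50, just inside the sheet's limit of 1 in either direction, and genes outside the limit have no name here.

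**Figure D1:**
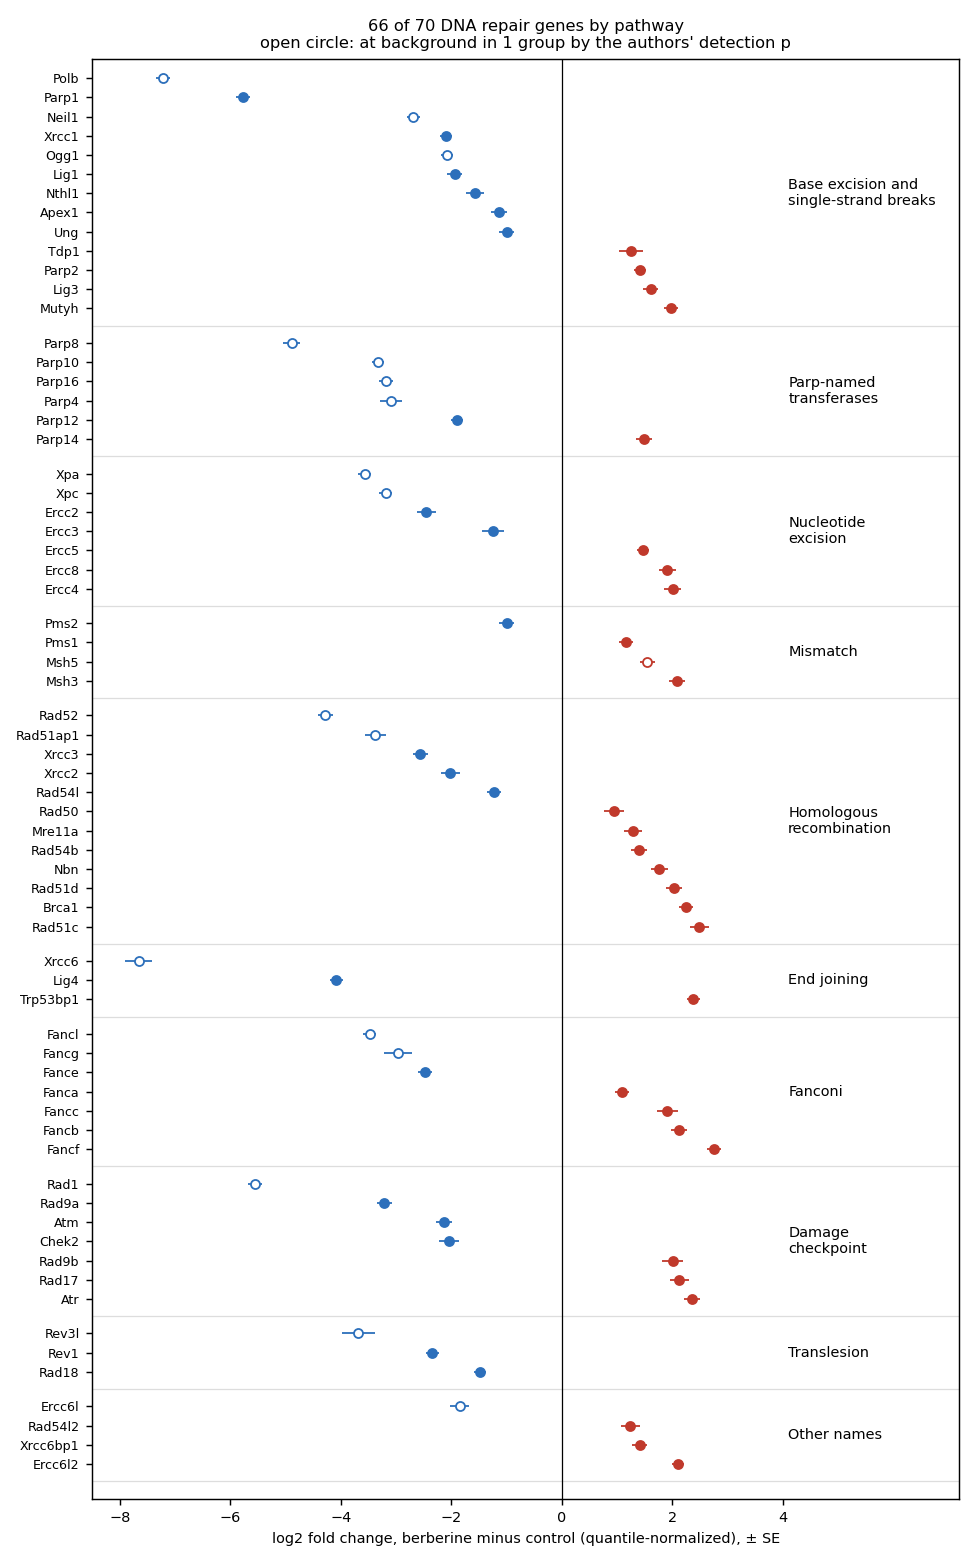
Log2 fold change of 66 of the 70 DNA repair genes (x axis, berberine minus control after quantile normalization, bars ± SE of the limma fit with 2 arrays per group), grouped by pathway. Blue genes are lower and red genes higher with berberine, open circles mark genes at background in 1 group, and falls reach −7.66 while rises stop at 2.76.

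No array was left out. Each array held 26423 probes, berberine arrays had median intensities of 189 and 206 and control arrays of 333 and 273, and Pearson's r of log2 values between replicates was 0.974 for berberine and 0.967 for control. Within groups, the repair genes had a median ratio of replicate 1 to replicate 2 of 1.08 for berberine and 1.21 for control. Of 10 neural progenitor markers, 4 were named in the sheet. Msi1 gave intensities of 2153 and 2391 with berberine and of 2214 and 1834 in control, and Prom1 gave 591 and 639 with berberine and 283 and 236 in control. Sox9 gave 13 and 36 with berberine, against 1091 and 897 in control, and Hes1 gave 90 and 188 with berberine, against 3162 and 2667 in control. Msi1 thus overlapped between the groups and Hes1 and Sox9 were low with berberine. The macrophage marker Cd68, the only one of 4 immune markers with a name, gave 61 and 96 with berberine and 1010 and 849 in control. Of 3 markers each for neurons, astrocytes, oligodendrocytes and endothelial cells, 2 each were named. Those of neurons (Map2 and Tubb3) were lower with berberine, and those of astrocytes (Aqp4 and S100b), oligodendrocytes (Mbp and Olig2) and endothelial cells (Cdh5 and Cldn5) were higher. As deposited, Map2 and Tubb3 still passed, but those 6 rises did not, with adjusted p-values between 0.0559 and 0.343 in limma. The part of any change in cell make-up in the results below was not tested. In bulk RNA, fewer cells that express a gene and less RNA per cell cannot be told apart. The labels do not say whether the replicates were separate cultures, so p-values measure the spread between these samples, which may be technical.

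The scale mattered more for rises than for falls. On the values as deposited, with no normalization between arrays, 38 falls and 17 rises passed, and 15 genes did not, whereas 43.3% of all named genes then passed as lower and 31.1% as higher (74.4% in all). Over all probes, 19.8% then passed as lower and 13.4% as higher. The 14 rises that did not pass included those of Ercc5, Ercc8, Fanca, Msh3, Mutyh, Nbn, Parp14, Pms1, Rad50, Rad51d, Rad54b, Rad54l2 and Tdp1, and the fall that did not pass was that of Apex1. For 66 of the 70 genes the deposited intensities of the groups did not overlap, as was the case for 96.4% of all named genes. The 4 exceptions, where 3.6% of all named genes overlapped, were Fanca, Pms1, Rad50 and Rad54l2, with log2 differences of 0.04, 0.10, 0.04 and 0.20 as deposited. The ratio in the authors' deposited table was nearer to the quantile-normalized value than to the one as deposited for 67 of the 70 genes, with a median absolute difference of 0.08 against 0.63. Of the 70 genes, none changed sign between these scales or after median centring of each array. After median centring 95.0% of all named genes passed, and Apex1, Fanca, Rad50 and Rad54l2 did not.

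**Figure D2:**
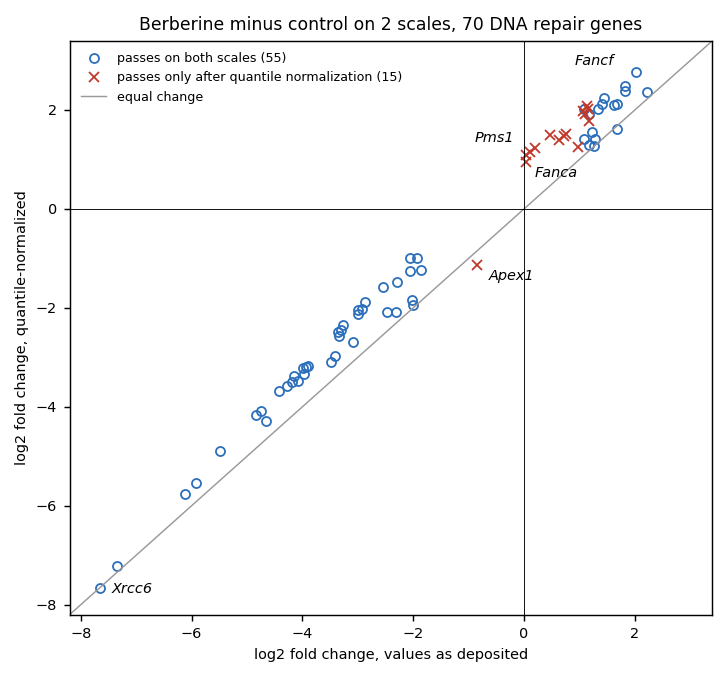
Log2 fold change of the 70 genes, berberine minus control, on values as deposited (x axis) and after quantile normalization (y axis). The 55 circles passed on both scales and the 15 crosses only after normalization, 14 of them rises, with Fanca at 0.04 as deposited and at 1.09 after normalization.

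Probes whose detection p-value in the authors' deposited table was 0.01 or more for a group were treated as being at background there. This held with berberine but not in control for 18 of the 70 genes (25.7%), against 16.6% of all named genes, and in control but not with berberine for 1 gene, Msh5, against 3.74% of all named genes. For such genes the fold is a lower bound, "at least N-fold", set against the lowest detected signal on each array or the probe's own value where that is higher. Just under that limit with berberine were Lig4 (detection p-value 0.00609), Nthl1 (0.00852) and Xrcc3 (0.00939), and just over it was Rad51ap1 (0.0119). With bounds in place of fitted folds, 7 of the 70 genes were at least 16-fold lower and none was 16-fold higher, and 10.3% of all named genes were at least 16-fold lower. Adjusted p-values of the 70 genes ran from 0.000186 to 0.0129 in the limma fit, and standard errors of the log2 changes from 0.11 to 0.30.

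Base excision and single-strand break repair had 13 named genes, of which 9 fell and 4 rose. Of the 13, 69.2% were lower, against 44.2% of all named genes. Parp1, the sensor that marks broken DNA with poly-ADP-ribose, gave intensities of 542 and 598 with berberine, against 41618 and 37418 in control. The groups were far apart and the change was −5.77 ± 0.13 (log2 ± SE), a 54.7-fold fall. Polb, the polymerase that fills the gap left by a removed base, gave 42 and 64 with berberine, against 8901 and 7892 in control. That is background for the berberine group, and a fall of at least 58.9-fold. Xrcc1, the scaffold that holds the repair enzymes at a break, gave 2339 and 2166 with berberine, against 13715 and 11364 in control, and fell by 2.09 ± 0.11 on the log2 scale. Its partner Lig3, a ligase of nuclei and mitochondria, went the other way, with 31718 and 23250 with berberine, against 9142 and 7825 in control, a rise of 1.61 ± 0.13. Lig1, the ligase of replication and long-patch repair, gave 5602 and 4163 with berberine, against 22085 and 16972 in control, and fell by 1.94 ± 0.13.

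Of the 5 glycosylases, which remove damaged bases, 4 fell and 1 rose, and Ogg1 and Neil1 were at background with berberine. Ogg1, which removes oxidised guanine, gave 31 and 55 with berberine, against 224 and 187 in control, which allows only a bound of at least 1.30-fold lower. Neil1, which removes oxidised pyrimidines, gave 41 and 62 with berberine, against 471 and 385 in control, at least 2.48-fold lower. Nthl1, which acts on the same kind of lesion, fell by 1.57 ± 0.16, and Ung, which removes uracil, fell by 1.0 ± 0.13. Mutyh, which removes adenine paired with oxidised guanine, gave 2908 and 2129 with berberine, against 1308 and 1096 in control, and rose by 1.98 ± 0.13, with an adjusted p of 0.0555 as deposited. Apex1, the nuclease that cuts abasic sites, gave 22280 and 15184 with berberine, against 35976 and 29949 in control. It fell by 1.14 ± 0.14, but by 0.84 as deposited (adjusted p = 0.115) and by 0.22 after median centring (0.56). Parp2, a second break sensor, rose by 1.42 ± 0.11. Tdp1, which frees DNA ends from trapped topoisomerase, rose by 1.25 ± 0.22, a call that ended without berberine replicate 1 (adjusted p = 0.0647), without berberine replicate 2 (0.0511) and without control replicate 2 (0.0606).

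Of 12 further genes of this pathway listed by function, 9 were named, with 6 higher and 3 lower. Fen1, the flap nuclease of long-patch repair, fell to 985 and 950 with berberine, against 28654 and 24078 in control (−4.39 ± 0.11). The end-processing factor Aplf rose by 2.27 ± 0.12 and the glycosylase Mbd4 by 2.22 ± 0.12. The further glycosylase genes Mpg and Smug1 fell by 1.64 ± 0.13 and fell by 0.77 ± 0.15.

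Of the 6 Parp-named genes outside break repair, mostly enzymes that add single ADP-ribose units, 5 fell and 1 rose. The share lower was 83.3%, against 44.2% of all named genes. Parp8 gave 72 and 106 with berberine, against 4179 and 3684 in control, at least 21.99-fold lower. Parp16, an enzyme of the endoplasmic reticulum membrane, gave 90 and 105 with berberine, against 1668 and 1254 in control, at least 7.33-fold lower. Parp10 and Parp4 were at background with berberine too, and Parp12 fell by 1.89 ± 0.11. Parp14, known from interferon responses, gave 2115 and 1686 with berberine, against 1418 and 1312 in control, and rose by 1.49 ± 0.14, or by 0.47 as deposited (adjusted p = 0.23).

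**Figure D3:**
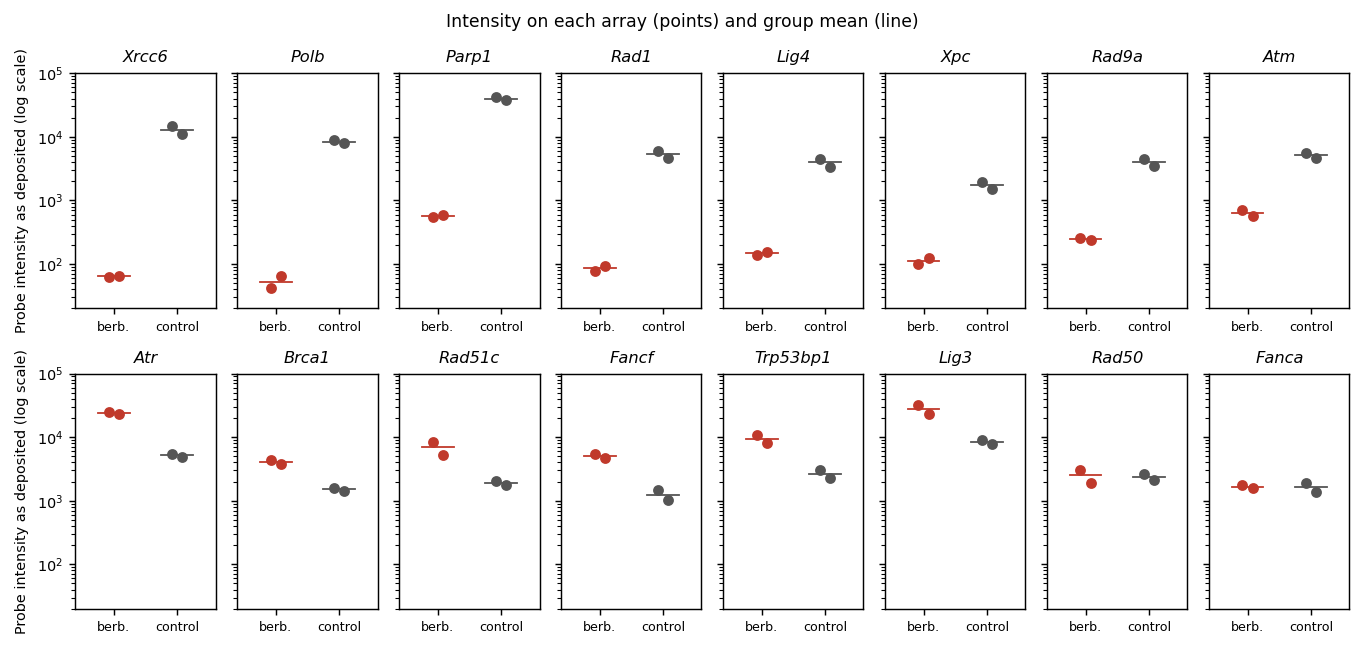
Probe intensity as deposited (y axis, log scale) on each array for 16 DNA repair genes, berberine left of control, with points for the 2 arrays and a line at the group mean. The first 8 genes are lower on both berberine arrays, the next 6 are higher on both, and the groups of Rad50 and Fanca overlap.

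In nucleotide excision repair 5 of 8 genes fell and 3 rose. That is 62.5% lower, against 44.2% of all named genes. The falls were in genes of lesion recognition and DNA opening. Xpc, which finds the lesion, gave 101 and 124 with berberine, against 1976 and 1500 in control, at least 8.20-fold lower. Xpa, which verifies the lesion, gave 89 and 112 with berberine, against 2136 and 1736 in control, at least 9.79-fold lower. The helicase genes of the general factor TFIIH were lower as well. Ercc2 (XPD) fell by 2.45 ± 0.17 and Ercc3 (XPB) fell by 1.25 ± 0.20. The Ercc3 call ended without control replicate 1 (adjusted p = 0.0591).

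The rises included the nuclease genes Ercc4 and Ercc5, whose proteins cut on either side of the lesion. Ercc4 (XPF) gave 1053 and 828 with berberine, against 462 and 415 in control, a rise of 2.01 ± 0.15. Ercc5 (XPG) rose by 1.47 ± 0.11, or by 0.73 as deposited (adjusted p = 0.127). Ercc8 (CSA), of the branch that serves transcribed genes, gave 4834 and 3226 with berberine, against 2096 and 1610 in control, a rise of 1.91 ± 0.15, with an adjusted p of 0.0712 as deposited. Among 15 further genes of the pathway 7 were named, 5 higher and 2 lower. Uvssa, of the same branch as Ercc8, rose by 2.91 ± 0.11 and the TFIIH kinase gene Cdk7 by 2.27 ± 0.16, while the TFIIH subunit gene Gtf2h1 fell by 1.25 ± 0.14. Members of TFIIH therefore moved in opposite directions.

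Mismatch repair genes moved in both directions. Msh3, which binds loops of unpaired bases, gave 2488 and 1726 with berberine, against 1056 and 837 in control, a rise of 2.09 ± 0.15, or of 1.14 as deposited (adjusted p = 0.0573). Pms2, a nuclease subunit of the excision step, gave 815 and 736 with berberine, against 3302 and 3101 in control, a change of −1.0 ± 0.14. The related gene Pms1 rose by 1.16 ± 0.13 after normalization, but its intensities of 1640 and 1693 with berberine lay between the 1785 and 1351 of control. Msh5, a meiotic gene, was at background in control, with 177 and 176 with berberine and 75 and 77 in control, at least 2.18-fold higher. Of 5 further listed genes 4 were named, all of them subunits of DNA polymerase delta. Pold1 and Pold4 rose by 1.83 ± 0.17 and 1.77 ± 0.14, with adjusted p-values of 0.0934 and 0.0510 as deposited, and Pold2 and Pold3 fell by 2.33 ± 0.16 and fell by 1.65 ± 0.17.

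Homologous recombination had 8 genes higher and 5 lower of 13 after quantile normalization. The share lower was 38.5%, against 44.2% of all named genes. As deposited, 3 were called higher, 5 lower and 5 did not pass, so that falls then outnumbered rises. Falls also outnumbered rises among all named genes as deposited, with 43.3% called lower and 31.1% higher. Brca1, which promotes end resection, gave 4401 and 3779 with berberine, against 1595 and 1421 in control, a rise of 2.25 ± 0.12. The complex that detects and trims breaks rose in every subunit after normalization. Its nuclease gene Mre11a gave 14500 and 14914 with berberine, against 6820 and 6197 in control (1.29 ± 0.17), and Nbn gave 8822 and 5522 with berberine, against 3412 and 2816 in control (1.77 ± 0.16, or 1.17 with an adjusted p of 0.0662 as deposited). Rad50 is the weak member. It gave 3086 and 1926 with berberine, around the 2624 and 2152 of control, and its rise of 0.95 ± 0.18 was lost as deposited (adjusted p = 0.949), after median centring (0.198), without control replicate 1 (0.0888) and without control replicate 2 (0.0876).

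The subunits of BCDX2 and CX3, complexes that act early in strand exchange, were divided. Rad51c gave 8507 and 5290 with berberine, against 2045 and 1776 in control, a rise of 2.49 ± 0.17, and Rad51d rose by 2.03 ± 0.14, or by 1.16 as deposited (adjusted p = 0.0559). Xrcc2, the direct partner of RAD51D, fell by 2.02 ± 0.17. Xrcc3, a direct partner of RAD51C, gave 130 and 145 with berberine, against 1469 and 1323 in control, and fell by 2.56 ± 0.13. Rad51ap1, a recombination accessory gene, gave 137 and 197 with berberine, against 3303 and 2608 in control, at least 10.4-fold lower. Rad52, an annealing protein, was at background with berberine, at least 4.33-fold lower. The related motor genes Rad54l and Rad54b moved apart. Rad54l fell by 1.23 ± 0.13, and Rad54b rose by 1.40 ± 0.15, with an adjusted p of 0.113 as deposited.

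Among 24 further recombination genes 17 were named, 8 higher, 7 lower and 2 not called, while as deposited 4 were called higher and 8 lower. The largest changes were falls in the single-strand binding protein RPA, which coats resected DNA. Rpa2 gave 31 and 53 with berberine, against 9386 and 8031 in control, at least 61.6-fold lower, and Rpa3 gave 199 and 164 with berberine, against 17184 and 13711 in control, 74.9-fold lower. Brcc3, a deubiquitinase of a BRCA1 complex, rose by 2.76 ± 0.14, and the helicase gene Recql by 2.30 ± 0.19, with an adjusted p of 0.0527 as deposited. The genes not called were Bard1 (1.06 ± 0.33, adjusted p = 0.0554), whose protein pairs with BRCA1, and Helq (−1.34 ± 0.47, 0.0705), both from limma.

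**Figure D4:**
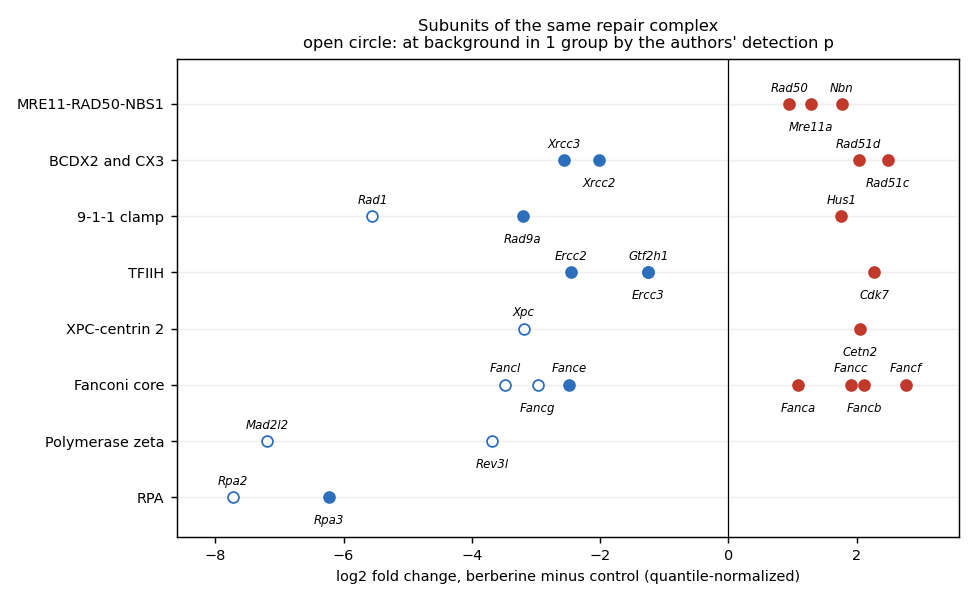
Log2 fold change (x axis, berberine minus control after quantile normalization) of named subunits of 8 repair complexes (rows). Open circles mark genes at background in 1 group. Each gene is shown by its brightest named probe, so the other probes of Fancb and Fancc, which fell, are left out. The Fanconi pathway gene Faap100, which rose by 1.76, is not shown. Subunits of MRE11-RAD50-NBS1, polymerase zeta and RPA lie on 1 side of 0, and those of the other 5 rows lie on both sides.

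Only 3 of the genes belong to end joining and the chromatin response to breaks. Xrcc6 (Ku70), a subunit of the ring that first grips a broken end, gave 63 and 65 with berberine, against 15044 and 10987 in control, at least 98.9-fold lower. Lig4, which seals the joined ends, gave 139 and 155 with berberine, against 4545 and 3396 in control, a 16.9-fold fall (−4.08 ± 0.12). Trp53bp1, whose protein shields ends from resection, went up instead, with 10678 and 8057 with berberine, against 2992 and 2301 in control (2.38 ± 0.12). Of 14 further genes 8 were named, 4 higher and 4 lower. Mad2l2, which acts both in end protection and in polymerase zeta, gave 71 and 124 with berberine, against 14941 and 14476 in control, at least 109-fold lower, and the ubiquitin ligase gene Rnf168 was 12.9-fold lower. Rif1, which works with 53BP1, rose by 2.20 ± 0.14 and the end-joining factor Nhej1 by 2.0 ± 0.14.

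The Fanconi core complex, which ubiquitinates its targets at crosslinks, had 4 genes higher and 3 lower of 7. That is 42.9% lower, against 44.2% of all named genes. As deposited, 3 were called higher and 3 lower. Fancf, an adaptor of the complex, gave 5411 and 4624 with berberine, against 1467 and 1038 in control, and rose by 2.76 ± 0.13. Fancl, the ubiquitin ligase subunit, gave 58 and 84 with berberine, against 1288 and 1075 in control, at least 6.02-fold lower. Fance gave 384 and 395 with berberine, against 4188 and 3783 in control, a change of −2.48 ± 0.13, and Fancg was at least 3.70-fold lower. Fanca rose by 1.09 ± 0.12 after normalization, while its intensities of 1750 and 1577 with berberine lay within the 1869 and 1392 of control, and the call ended on the values as deposited (adjusted p = 0.925) and after median centring (0.0552).

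Direction depended on the probe for Fancb and Fancc. The brightest Fancb probe, annotated to 2 transcripts, gave 6522 and 4685 with berberine, against 2414 and 1785 in control, a rise of 2.12 ± 0.14. Its other probes gave 257 and 216 with berberine, against 1589 and 1294 in control, and 12 and 33 with berberine, against 1389 and 1206 in control, and both were called lower. For Fancc 1 probe gave 444 and 457 with berberine, against 184 and 217 in control, a rise of 1.91 ± 0.19, and the other gave 130 and 146 with berberine, against 732 and 584 in control, a change of −1.56. With the mean of its probes, Fancb was at −1.84 on the log2 scale, and Fancc was no longer called (0.18, adjusted p = 0.308). The 3 other genes with several named probes, Atm, Rad18 and Xrcc6bp1, moved the same way on each of them.

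Of 11 further Fanconi pathway genes 8 were named, 6 higher and 2 lower. The genes that fell were Ube2t and Usp1. Ube2t, the conjugating enzyme that works with FANCL, gave 32 and 43 with berberine, against 6592 and 5336 in control, at least 38.3-fold lower. Usp1, the enzyme that removes the ubiquitin again, gave 181 and 152 with berberine, against 13666 and 10628 in control, 62.2-fold lower. Faap24, a DNA-binding partner of FANCM, rose by 1.99 ± 0.16.

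Damage checkpoint signalling was divided between its kinases. Atm, the kinase of double-strand breaks, gave 718 and 573 with berberine, against 5571 and 4639 in control, a change of −2.13 ± 0.15. Chek2, its effector kinase, gave 276 and 356 with berberine, against 2683 and 2312 in control, and fell by 2.04 ± 0.18. Atr, the kinase of stalled forks, gave 24911 and 23471 with berberine, against 5495 and 4880 in control, and rose by 2.36 ± 0.14. Rad17, which loads the checkpoint clamp for ATR signalling, gave 14373 and 8712 with berberine, against 3939 and 3112 in control, a rise of 2.13 ± 0.17.

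The clamp itself was split. Rad1 gave 79 and 94 with berberine, against 5963 and 4624 in control, at least 32.5-fold lower, and Rad9a gave 257 and 237 with berberine, against 4495 and 3418 in control, 9.25-fold lower. Its remaining subunit Hus1, outside the 70 genes, rose by 1.76 ± 0.17, or by 1.24 as deposited (adjusted p = 0.0685). The paralogue Rad9b rose by 2.01 ± 0.19. The 7 genes thus comprised 4 falls and 3 rises, or 57.1% lower, against 44.2% of all named genes. Of 13 further checkpoint genes 7 were named, 3 higher and 4 lower. Trp53, the p53 gene, gave 515 and 549 with berberine, against 13097 and 11186 in control, a 15.7-fold fall, and Wee1, a kinase that delays mitosis, was at least 11.4-fold lower. Cdc25a, the phosphatase that drives cells past the checkpoint, rose by 2.62 ± 0.16 and the fork protection gene Tipin by 2.16 ± 0.12.

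All 3 genes of translesion synthesis and post-replication repair fell, where 44.2% of all named genes were lower. Rev3l, the catalytic subunit of polymerase zeta, gave 51 and 106 with berberine, against 1808 and 1373 in control, at least 7.97-fold lower. Rev1, the polymerase that recruits it, gave 325 and 316 with berberine, against 3401 and 2756 in control, and fell by 2.34 ± 0.11. Rad18, the ligase that marks the sliding clamp at stalled forks, fell by 1.48 ± 0.11. Of 11 further genes 10 were named, 6 higher and 4 lower, so genes of the pathway outside the 70 moved both ways. The conjugating enzyme genes Ube2a and Ube2b, whose proteins both serve RAD18, differed, Ube2a being at least 35.6-fold lower and Ube2b higher by 2.27 ± 0.12. The helicase-like gene Hltf fell by 3.67 ± 0.12 and the conjugation cofactor Ube2v2 rose by 2.44 ± 0.11.

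The last 4 genes have repair-like symbols but were placed in none of these pathways. Ercc6l, a translocase of mitotic chromosomes, gave 40 and 55 with berberine, against 195 and 188 in control, at least 1.23-fold lower. Ercc6l2 gave 11268 and 9185 with berberine, against 3771 and 2923 in control, a rise of 2.11 ± 0.11. Xrcc6bp1, now called Atp23 and known as a mitochondrial protease, gave 16061 and 14823 with berberine, against 7260 and 5562 in control, a rise of 1.41 ± 0.13. Rad54l2 rose by 1.24 ± 0.17, with overlapping intensities as deposited, and its call ended without control replicate 1 (adjusted p = 0.0522), without control replicate 2 (0.0601) and after median centring (0.109).

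Repair genes can also be listed by function instead of by name. Of 108 further genes of these pathways listed by function, 72 were named, 41 called higher and 29 lower, with a median of 1.49. The share lower was 41.7%, close to the 44.2% of all named genes, whose median was 1.22. On the values as deposited, 26 of the 72 were called higher and 30 lower, where 31.1% of all named genes were called higher and 43.3% lower. In the authors' deposited table of biological processes, the term DNA repair held 209 called genes of 318 (65.7%, authors' q-value 2.53e-18). It ranked at place 4 of the list by p-value. For scale, the authors' sheet of changed probes held 9800 of the 26423 probes, a count of probes and not of genes. In the limma fit here, which set no limit on the fold, 62.7% of all probes passed. Of those 209 genes, 106 were higher, 102 lower and the median was 0.97 in the limma fit after quantile normalization, and 57 belong to the 70. As deposited, 63 of the 209 were called higher and 100 lower, with a median of 0.07, against 0.45 over all named genes. Under the term base-excision repair 6 genes were higher and 17 lower, and under double-strand break repair via homologous recombination 26 were higher and 18 lower. The share lower was 48.8% for DNA repair, 73.9% for base-excision repair and 42.2% for the recombination term, against 44.2% of all named genes. As deposited, 4 genes of the base-excision repair term were called higher and 16 lower, and 13 of the recombination term were called higher and 19 lower. These terms count genes called in either direction and overlap with the 70 genes, so they are not separate evidence.

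Direction also went with the kind of probe. The identifiers fall into series by their prefix, and 34 of the 70 genes were represented by PH_mM probes, 33 by mMC probes and 3 by mMR probes. Of the PH_mM genes 32.4% were lower, against 34.1% of all named genes in that series. Of the mMC genes 75.8% were lower, against 56.9% of all named genes in that series, and all 3 mMR genes (Xpa, Xpc and Rad51ap1) were lower, against 59.9% of all named genes in that series. Among repair genes with a control level under 10 on the log2 scale 50.0% were lower, against 27.3% of all named genes at that level. At 12 or more 62.5% were lower, against 69.4%. The control level is itself a term of the fold change, so this split cannot show whether brighter genes fell more. With genes split by the mean of the 4 arrays instead, the shares ran the other way. Under 10, 87.1% of repair genes were lower, against 52.2% of all named genes. At 12 or more these shares were 28.6% and 36.4%. The part of probe series and probe brightness in the directions was not tested.

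**Figure D5:**
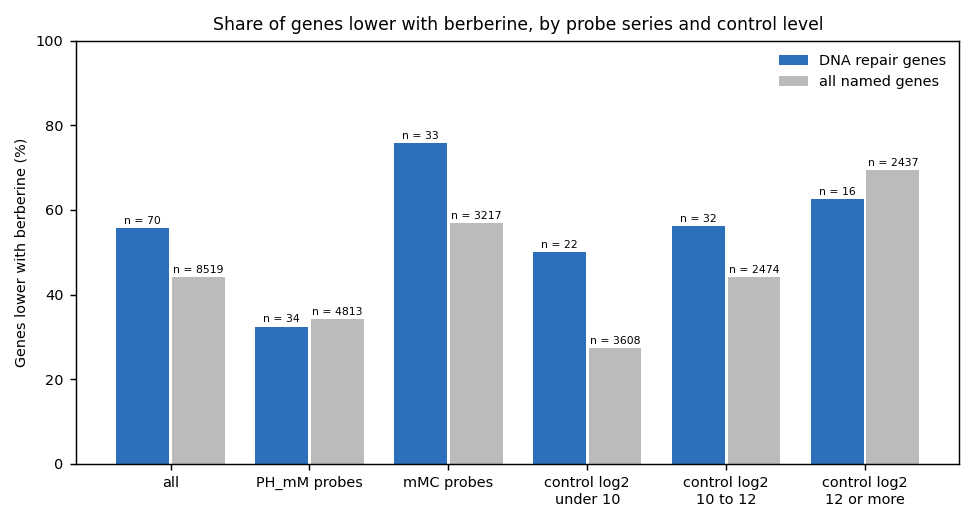
Percentage of genes lower with berberine (y axis) for the DNA repair genes (left bar) and all named genes (right bar), without a split, by probe series and by control level, with the number of genes over each bar. The share was 55.7% against 44.2% without a split, 32.4% against 34.1% for PH_mM probes and 75.8% against 56.9% for mMC probes. The control level is itself a term of the fold change.

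Promoters were read because the cell cycle factor E2F is known to drive many repair genes in dividing cells. RefSeq sequences (GRCm38.p6), 250 bases before to 50 after each start, were given for 52 of the 70 genes. An E2F motif (TTTCGCGC, TTTGGCGC or TTTCCCGC on either strand) was present in 15.4% of the 52, against 3.67% of 6696 named genes and 2.12% of 27025 genes with a promoter. The letters occurred in genes of either direction, in 5 of the 29 that fell and 3 of the 23 that rose. The holders were Chek2, Fancg, Lig1, Nthl1 and Xrcc6, which fell, and Msh3, Msh5 and Rad51c, which rose. The NF-Y motif CCAAT was in 55.8% of the 52 and 42.8% of the named genes, the SP1 motif GGGCGG in 69.2% and 66.7%, the antioxidant element TGACNNNGC in 17.3% and 16.7%, and the cell cycle motif TTTGAA in 5.77% and 14.3%. Matches were counted on both strands, may overlap and describe letters only. The promoters below belong to the deepest fall (Xrcc6, chr15:82016119-82016418, plus strand) and to large rises (Fancf, chr7:51862218-51862517, minus strand, and the first of the starts of Rad51c, chr11:87404457-87404756, minus strand). Capitals mark the E2F, NF-Y, SP1 and antioxidant motifs.
Xrcc6: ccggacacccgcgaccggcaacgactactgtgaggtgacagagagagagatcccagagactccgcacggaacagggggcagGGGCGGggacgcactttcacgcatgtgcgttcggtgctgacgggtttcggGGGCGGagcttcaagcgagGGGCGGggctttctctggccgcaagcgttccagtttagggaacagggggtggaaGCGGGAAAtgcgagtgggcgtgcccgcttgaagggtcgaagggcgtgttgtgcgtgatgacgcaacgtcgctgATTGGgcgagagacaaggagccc
Fancf: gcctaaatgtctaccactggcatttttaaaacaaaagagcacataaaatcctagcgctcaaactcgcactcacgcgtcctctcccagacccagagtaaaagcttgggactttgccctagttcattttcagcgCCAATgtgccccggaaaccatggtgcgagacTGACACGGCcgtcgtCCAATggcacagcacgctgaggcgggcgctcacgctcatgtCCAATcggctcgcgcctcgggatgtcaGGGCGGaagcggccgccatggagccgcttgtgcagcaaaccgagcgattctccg
Rad51c: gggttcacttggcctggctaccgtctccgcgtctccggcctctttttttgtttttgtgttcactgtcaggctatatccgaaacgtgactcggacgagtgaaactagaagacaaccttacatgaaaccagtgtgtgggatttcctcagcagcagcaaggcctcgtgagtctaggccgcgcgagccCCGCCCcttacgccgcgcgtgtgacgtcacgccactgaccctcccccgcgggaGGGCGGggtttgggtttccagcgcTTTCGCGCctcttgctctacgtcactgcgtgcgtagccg
The Xrcc6 promoter carries SP1, E2F and NF-Y letters, that of Rad51c SP1 and E2F letters, and that of Fancf NF-Y, antioxidant and SP1 letters. The pair with E2F letters moved in opposite directions, with Xrcc6 at least 98.9-fold lower and Rad51c 5.63-fold higher.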

How the data were processed

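Linear probe intensities were deposited for 4 arrays, with the authors' background handling and scaling not given in the sources used here. Per the file headers, the authors' sheet holds group means of normalized intensity, group detection p-values, and a log2 ratio with its p-value, and a further sheet counts of genes per biological process term with p-values and q-values. Groups G1 and G3 of the sheet were read as control and berberine because their means differed from those of the arrays by a median of 0.273% and 0.662%. The tables held 0 columns of unassigned per-sample values.

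Here, intensities were floored at 1, log2-transformed, quantile-normalized and compared with lmFit and eBayes of limma 3.58.1 (R 4.3.3), 2 arrays against 2, by 2-sided tests with Benjamini-Hochberg adjustment over all 26423 probes. The fit was tested on simulated data. The number of arrays limits the precision. Where a gene had several named probes, the brightest on average (mean normalized log2 of the 4 arrays) stood for it. The median log2 difference of all probes was 0.39 after quantile normalization, 0.74 with median centring and 0.13 as deposited, so changes are to be read relative to this.

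Members, pathway lists and motifs were chosen with earlier results of these data known. Values per array are given for the 2 largest rises and falls of each pathway, ranked by fold or bound, and for a fixed set of core genes, with others given by change alone. Of the core genes, Msh6, Brca2, Fancd2, Chek1 and Ercc1 have no named probe in the sheet and are not analysed here. Values of 4 further genes are counted in the totals but not reported here. Other scalings, a floor of 32, a filter at log2 7, other probes per gene, a replicate block and each array left out were tried.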

Additional observations from a re-analysis of the deposited data

How the results depend on the processing

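The count of 31 higher genes was 17 on the values as deposited, and the same 17 was the number called higher on all 3 scalings, a condition chosen after seeing the data. It lay between 28 and 30 when an array was left out, and the count of 39 lower genes between 38 and 39. Neither count moved by over 1.5 times under the other alternatives. The median of −1.24 was −2.02 as deposited, −1.40 after median centring, −1.56 with each gene's dimmest probe, −1.41 with the mean of its probes and −1.07 with bounds, and ran from −1.34 to −1.05 with 1 array left out. With each gene's dimmest probe Fancb was at −5.95 and Fancc at −1.56, and the Fanconi median was −2.48 in place of 1.09, while averaging the probes of each gene put Fancb at −1.84 and that median also at −1.84. These reversals follow from probes of 1 gene that differ in direction. The cause of the loss of rises on the values as deposited was not tested beyond the shift of all probes. With the replicate block, 31 genes were higher and 39 lower, and no call changed, but the labels do not say that equal numbers mark a shared culture, and deviations of same-numbered arrays correlated at −0.0156. The 18 genes at background with berberine alone were 15 at a detection p-value of 0.05, also chosen after seeing the data. Dim signal limits the falls of such genes to bounds.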
